A study of Danio rerio with 35 samples.

Results

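Collagens are the trimeric proteins that give the extracellular matrix its fibrils, its basement membrane networks and many of its linkers. The collagen genes described here are every identifier whose gene symbol, read without regard to case, starts with "col", a type number, "a" and a chain number. The rule found 57 of the 26282 gene identifiers in the deposited tables, and they were divided by type into 16 fibrillar genes, 9 basement membrane genes (types IV, XV and XVIII), 12 FACIT genes (fibril-associated collagens with interrupted triple helices) and 20 other genes. The rule used no measured value, but symbols came first from the study's lists of differentially expressed genes and then from a reference of gene names. Expression was compared by RNA-seq in the telencephalon (the most anterior part of the brain) of adult zebrafish lacking the 2 progranulin genes grna and grnb, in 20 whole-telencephalon libraries and in cells sorted from the telencephalon. The whole-telencephalon groups were 18-month-old grna-/-;grnb-/- fish (old mutant), 18-month-old wildtype fish (old wildtype), 5-month-old grna-/-;grnb-/- fish (young mutant) and 5-month-old wildtype fish (young wildtype), with 5 libraries each. The sorted cells came from 5-month-old fish: Mpeg1+ cells of the Tg(mpeg1:mCherry) line, in which a macrophage and microglia promoter drives the reporter (4 libraries labelled mutant and 3 labelled wildtype), and Olig2+ cells of the Tg(olig2:DsRed) line, in which a promoter of the oligodendrocyte lineage drives it (4 mutant and 4 wildtype). Both mutant alleles shift the reading frame, so transcript can remain. Each sorted replicate pooled 3 telencephali, and every wildtype sorted fish carried the same reporter as its mutant counterpart. The whole-telencephalon mutants and wildtypes were siblings according to the study's methods, while parents, tanks and dissection days are not given in the sources used here.

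Fibrillar collagens assemble staggered fibrils that carry tension, FACIT collagens decorate the surface of those fibrils, and type IV collagens build the sheet-like network of basement membranes under endothelium and the outer surface of the brain. In the vertebrate brain most collagen is found in the meninges and around vessels, not in the neural tissue itself, and fibroblasts, mural cells and endothelial cells are its best known sources. Each chain must be hydroxylated, assembled with the chaperone Hsp47, secreted, trimmed by proteases and crosslinked by lysyl oxidases before it is stable.

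The libraries held 19.7 to 25.3 M reads in old mutants, 17.6 to 25.8 M reads in old wildtypes, 13.9 to 23.6 M reads in young mutants and 15.5 to 29.4 M reads in young wildtypes. The sorted libraries were less even, with 25.7 to 31.6 M reads in Mpeg1+ cells labelled mutant against 6.11 to 29.1 M reads in those labelled wildtype, and 6.38 to 21.8 M reads in mutant Olig2+ cells against 37.1 to 59.3 M reads in wildtype Olig2+ cells. Transcript of grnb followed the labels in whole telencephalon (4.87 to 21.3 normalised counts in old mutants against 57.2 to 118 in old wildtypes, and 12.7 to 20.3 in young mutants against 408 to 905 in young wildtypes) and in Olig2+ cells (57.5 to 205 in mutant against 307 to 472 in wildtype libraries). In Mpeg1+ cells it went against them, with 499 to 635 in the libraries labelled mutant and 51.3 to 268 in those labelled wildtype, so the labels are quoted as labels for these cells. Transcript of grna, the other mutated gene, overlapped there, at 32551 to 35094 in libraries labelled mutant against 30190 to 63711 in those labelled wildtype. It also overlapped in Olig2+ cells (1275 to 2539 in mutant against 611 to 1873 in wildtype) and between the young telencephalon genotypes (281 to 582 against 397 to 882). The old genotypes were separate for grna (229 to 494 against 668 to 2153). The Mpeg1+ libraries labelled mutant 1 and 2, and 3 and 4, were alike (median chi-square over its sampling expectation 1.58 and 2.88, against 26.3 to 32.9 for the other pairs of that group). In 7 whole-telencephalon libraries (old mutant 4, old wildtype 1, replicates 2 and 4 of the young mutants, and replicates 1, 4 and 5 of the young wildtypes) genes of the pineal organ were high, with a median of 664 to 1624 normalised counts over 17 pineal genes against 4.92 to 29.8 in the others.

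The collagen genes were broadly detected. In whole telencephalon 56 of the 57 were listed, of which 52 to 56 had at least 1 read in each library, and 46 passed the filter of a mean of 5 normalised counts over the table (15 fibrillar, 8 basement membrane, 11 FACIT and 12 other). The normalised counts are read counts divided by a size factor for each library, so they can be compared between libraries of a table but not between genes, since transcript lengths differ. Rankings and sums over genes given below are therefore of counts, not of transcript numbers. Among the basement membrane genes the highest means were those of col18a1a (1051 normalised counts, 474 to 1472 over the 20 libraries), whose product can release the fragment endostatin, col4a6 (268, 66.3 to 575) and col4a5 (181, 31.2 to 335). Among the fibrillar genes they were col1a2 (823, 149 to 1363) and col1a1b (474, 118.9 to 1113), chains of type I collagen, and COL2A1 (ENSDARG00000011407; 426, 318 to 537), a chain of the type II collagen of cartilage. The FACIT genes were led by col14a1a (1246, 897 to 1619), col16a1 (189.7, 54.6 to 384) and col14a1b (134, 50.9 to 192). The other genes were led by col6a1 (251, 69.7 to 554), a chain of the beaded type VI filaments that lie next to basement membranes, and by col8a1b (119.28, 24.3 to 335) and COL8A2 (81.6, 27.7 to 137), chains of the short type VIII collagen of vessel walls and the cornea.

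Summed over the 46 tested genes, collagen transcript was lower in old than in young telencephalon of either genotype. The sum was 4952, 6904, 6737, 6081 and 4049 normalised counts in the 5 old mutant libraries, against 9012, 8002, 10121, 8560 and 7643 in the young mutant libraries. In wildtypes it was 7144, 6841, 7371, 5869 and 5936 in old libraries, against 9159, 7458, 7964, 9537 and 10726 in young libraries. The old and young libraries did not overlap in either genotype. In young wildtypes the libraries with high pineal genes held the highest sums (9159, 9537 and 10726). Those without were at 7458 and 7964, against at most 7371 in old wildtypes. The old wildtype library with high pineal genes was at 7144. In mutants the libraries with high pineal genes (8002 and 8560 in young, 6081 in old) lay inside the range of the others. The part of pineal tissue in these sums was not tested. The sums by class that follow were taken over all 56 genes listed, including those under the filter. The basement membrane genes summed to 1314 ± 386 in old mutant, 1437 ± 147 in old wildtype, 2373 ± 273 in young mutant and 1976 ± 286 in young wildtype libraries (mean ± SD, n = 5 each), and the fibrillar genes to 2124 ± 663 in old mutant, 2819 ± 367 in old wildtype, 3605 ± 772 in young mutant and 3551 ± 829.5 in young wildtype libraries. The FACIT genes summed to 1864 ± 115 in old mutant, 1874.5 ± 267 in old wildtype, 1961 ± 132 in young mutant and 2343 ± 174 in young wildtype libraries. The other genes were highest in young wildtypes, with 469 ± 134 in old mutant, 532 ± 69.2 in old wildtype, 769.8 ± 72.7 in young mutant and 1138 ± 137 in young wildtype libraries. In bulk tissue, fewer cells of a type and less RNA per cell cannot be told apart.

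To ask how age acts in wildtype fish, old wildtype was compared with young wildtype telencephalon. A gene was called when limma gave a Benjamini-Hochberg adjusted p of at most 0.05 over all 19877 genes tested and a change of at least 2-fold. Of the 46 collagen genes 3 were called higher and 12 lower in old wildtypes, where 10.9% of all genes tested were called (5.21% higher and 5.66% lower). The log2 fold change was below 0 for 37 of the 46, with a median of -0.59 against -0.01 over all genes, and the groups did not overlap for 12 of the 46 genes, against 21.0% of all genes. All 8 basement membrane genes were below 0 (median -0.86, 4 called lower), as were 11 of the 12 other genes (median -0.78, 3 called lower), 9 of the 11 FACIT genes (median -0.57, 2 called lower and 1 higher) and 9 of the 15 fibrillar genes (median -0.57, 3 called lower and 2 higher).

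The comparison of genotypes at 5 months gave no common direction. In young mutant against young wildtype telencephalon 5 collagen genes were called higher and 4 lower, where 8.79% of all genes were called (4.97% higher and 3.82% lower), and the median change was -0.03 with 25 of the 46 genes below 0. The groups did not overlap for 11 of the 46, against 23.1% of all genes. With age in mutants, the calls ran one way: in old mutant against young mutant telencephalon 9 collagen genes were called, each of them lower in old mutants, where 1.32% of all genes were called (0.307% higher and 1.02% lower). The median was -0.67, 38 of the 46 were below 0, and the groups did not overlap for 6, against 7.17% of all genes. That count depended on single libraries, being 5, 3, 2 and 5 without young mutant 2, 3, 4 and 5, and 4 and 5 without old mutant 1 and 5. In old mutant against old wildtype telencephalon 3 were called, each lower, where 2.81% of all genes were called (1.23% higher and 1.58% lower), with a median of -0.08, and the groups did not overlap for 2, against 6.91% of all genes. It was 5 without old mutant 1 or 2. The share of all genes called in the fits that left out 1 library is not given here. These comparisons share libraries, so their values are set side by side and were not counted as repeats of each other.

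**Figure D1:**
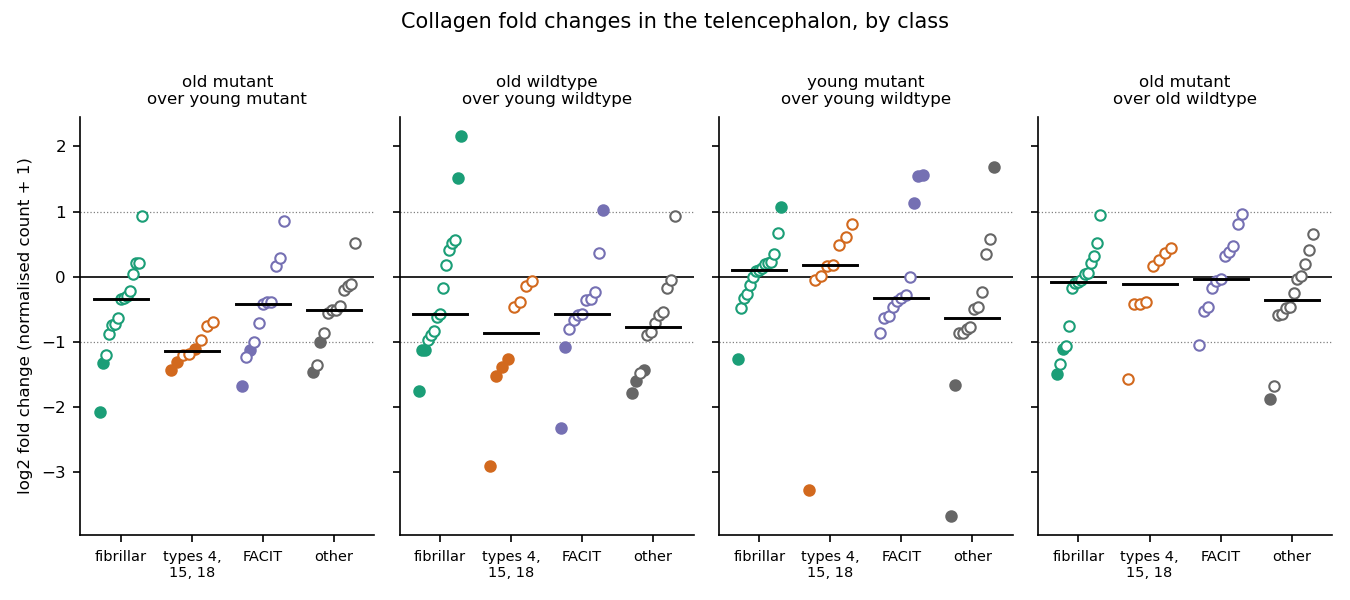
Log2 fold change of each tested collagen gene (vertical axis, 0 marked, dotted lines at 2-fold) by class (horizontal axis) in 4 comparisons of whole telencephalon, with filled points for called genes, open points for the rest and a black line at the class median. In both comparisons of old with young fish the basement membrane genes lie below 0, with medians of -1.15 in mutants and -0.86 in wildtypes, while the young genotypes differ in both directions.

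Among the basement membrane genes, col4a5 and col4a6, which encode a pair of type IV chains and are neighbouring genes on chromosome 7 of the RefSeq assembly GRCz12tu, were lower with age in both genotypes. The level of col4a5 was 147, 146, 102, 192 and 31.2 normalised counts in old mutants against 167, 241, 333, 335 and 283 in young mutants (log2 fold change -1.31 ± 0.36 SE, adjusted p = 0.0386). In wildtypes it was 139, 83.6, 78.9, 69.1 and 85.4 in old against 147, 224, 228, 284 and 314 in young fish (-1.38 ± 0.36, adjusted p = 0.00682). The wildtype ages did not overlap, although old wildtype 1 lay just under the lowest young library, while old mutant 4 lay above the lowest young mutant. For col4a6 the values were 242, 160.4, 136, 343 and 66.3 in old mutants against 269, 508, 465, 575 and 478 in young mutants (-1.43 ± 0.33, adjusted p = 0.0184). They were 187, 127, 142, 87.9 and 88.8 in old wildtypes against 275, 276, 221, 327 and 388 in young wildtypes (-1.26 ± 0.33, adjusted p = 0.00688). Again the wildtype ages were separate and the mutant ages overlapped through old mutant 4. The col4a5 call in mutants was kept in 3 of 10 fits that left out 1 library, with adjusted p up to 0.0949, and that of col4a6 in 9 of 10.

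The gene col4a4, whose mammalian product joins another type IV network found in the kidney glomerulus, was set apart by genotype as well as age. It was near the detection limit in every group but one, with 1.64, 0, 0, 1.67 and 0 normalised counts in old mutants, 4.58, 4.92, 0.805, 5.12 and 3.46 in old wildtypes, 11.7, 5.61, 0.864, 0 and 1.99 in young mutants and 48.2, 29.2, 21.7, 34.1 and 31.7 in young wildtypes. Each young wildtype library was above every other library of the table. It fell by 2.91 ± 0.58 on the log2 scale in old against young wildtypes (adjusted p = 0.000835) and by 3.27 ± 0.58 in young mutants against young wildtypes (adjusted p = 0.000389). Its difference was -1.21 between the ages of the mutants (adjusted p = 0.213) and -1.57 between the old genotypes (adjusted p = 0.074). These fold changes are on the scale of log2(normalised count + 1), which understates changes at low counts. The chains COL4A1 and COL4A2, which form the commonest type IV network and are neighbours on chromosome 9 of GRCz12tu, were not called with age. COL4A1 was at 88.6, 73.9, 82.6, 61.1 and 69.2 in old mutants against 143, 174, 127, 78.3 and 130.3 in young mutants, a difference of -0.76 that passed on p (adjusted p = 0.0189) but not on fold. In wildtypes it differed by -0.38 (adjusted p = 0.104). COL4A2 was at 16.4, 21.1, 14.1, 5.86 and 16.6 in old mutants against 25.5, 32.6, 30.2, 26.1 and 25.9 in young mutants, with no overlap, but the difference of -0.97 missed the threshold (adjusted p = 0.0992), and in wildtypes it differed by -0.07 (adjusted p = 0.887). The remaining type IV gene listed, col4a3, a neighbour of col4a4 on chromosome 15 of GRCz12tu, did not pass the filter in whole telencephalon.

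The multiplexins, types XV and XVIII, carry a central collagenous part with many interruptions and sit at the outer face of basement membranes. For col15a1b the counts were 74.7, 86.5, 99.3, 118 and 66.3 in old mutants against 193, 179.7, 196, 181 and 201 in young mutants, a fall of 1.12 ± 0.25 (adjusted p = 0.014). No old mutant library came near the young mutant libraries, and the call was kept in 10 of 10 fits that left out 1 library. In wildtypes the ages differed less, at 58.4, 86.5, 98.3, 65.7 and 88.8 in old against 139.9, 103, 47.8, 150.4 and 139 in young fish (-0.46, adjusted p = 0.156), with young wildtype 3 the lowest library of both groups. The low gene col18a1b was at 4.58, 4.92, 8.05, 3.41 and 2.31 in old against 14.1, 15.8, 7.61, 25.3 and 14.0 in young wildtypes (-1.52, adjusted p = 0.0057). Its paralogue col18a1a was at 1061, 909, 1144, 1063 and 859.5 in old against 1204, 964, 1019, 1049 and 1337 in young wildtypes, and these overlapped (-0.14, adjusted p = 0.619). In mutants col18a1a was at 542, 1000.3, 1142, 905 and 474 in old against 1398, 1328, 1472, 1318 and 832 in young fish (-0.70, adjusted p = 0.0507).

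**Figure D2:**
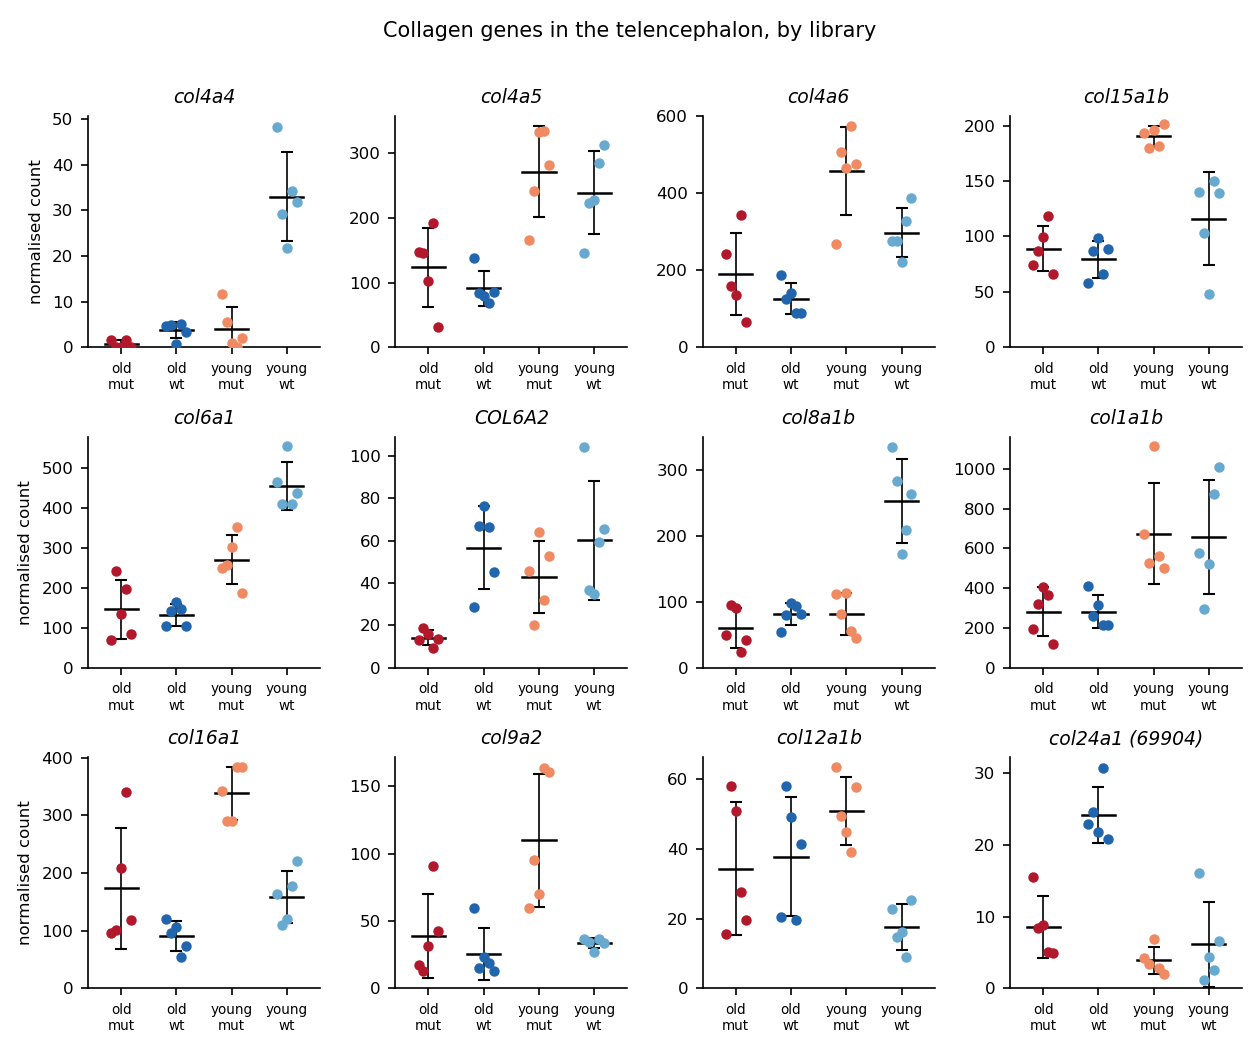
Normalised counts (vertical axes, linear from 0) of 12 collagen genes in the whole-telencephalon libraries, with 1 point per library, a line at the mean and a bar of 1 SD, in the order old mutant, old wildtype, young mutant, young wildtype (n = 5 each). The 5 young wildtype libraries stand alone for col4a4 (21.7 to 48.2), col6a1 (408 to 554) and col8a1b (173 to 335), and the 5 young mutant libraries are highest for col15a1b (179.7 to 201).

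Among the other collagens, col6a1 showed the smallest adjusted p of the family with age. Its counts were 104, 142, 164, 147 and 105 in old wildtypes against 466, 410.2, 554, 408 and 436 in young wildtypes (132 ± 26.7 against 455 ± 60.2, mean ± SD), a fall of 1.79 ± 0.27 on the log2 scale (adjusted p = 5.94e-05). In mutants they were 69.7, 243, 135, 197 and 85.8 in old against 249, 257, 302, 352 and 188 in young fish, a fall of 1.00 ± 0.27 (adjusted p = 0.031). Every old wildtype library was below the lowest young wildtype library, whereas the mutant ages overlapped and the mutant call was kept in 5 of 10 fits that left out 1 library, with adjusted p up to 0.0839. Type VI collagen is assembled from 3 different chains, and the chains did not move alike. COL6A2 was at 13.1, 19.0, 15.8, 9.21 and 13.6 in old mutants, 28.6, 66.8, 76.5, 66.6 and 45.0 in old wildtypes, 45.6, 20.2, 63.9, 31.9 and 52.7 in young mutants and 104, 36.5, 34.8, 59.4 and 65.3 in young wildtypes. It was thus low in old mutants alone, where every library was below every library of the other 3 groups, with a change of -1.88 ± 0.34 against old wildtypes (adjusted p = 0.00165) and -1.46 ± 0.34 against young mutants (adjusted p = 0.0183). The wildtype ages differed by -0.05 for COL6A2 (adjusted p = 0.931), and COL6A3 differed by -0.57 with age in mutants (adjusted p = 0.286) and by -0.55 in wildtypes (adjusted p = 0.188).

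The type VIII gene col8a1b was highest in young wildtypes, in the same way as col4a4. It was at 50.05, 95.0, 90.5, 24.3 and 41.9 in old mutants, 55.0, 80.6, 98.3, 93.9 and 81.9 in old wildtypes, 112, 82.0, 114, 56.5 and 44.8 in young mutants and 335, 284, 173, 209 and 264 in young wildtypes. The fall was 1.60 ± 0.33 in old against young wildtypes (adjusted p = 0.00106) and 1.67 ± 0.33 in young mutants against young wildtypes (adjusted p = 0.000964). Its partner chain COL8A2 differed by -0.71 with age in wildtypes (adjusted p = 0.068). Between the young genotypes COL8A2 was not called and did not fall with col8a1b. It was at 137, 86.5, 117, 116 and 111 in young mutants against 111, 59.6, 75.0, 99.9 and 106 in young wildtypes. The gene col28a1b, for a collagen with von Willebrand factor A domains, was low throughout, at 1.06, 0, 4.32, 0 and 0 in young mutants against 10.7, 9.74, 30.4, 27.8 and 31.7 in young wildtypes (-3.67 ± 0.66, adjusted p = 0.000448). The transmembrane collagen gene col23a1a was at 3.43, 4.92, 2.42, 5.12 and 1.15 in old against 20.1, 7.30, 8.69, 13.9 and 5.60 in young wildtypes (-1.43, adjusted p = 0.0409), a call kept in 5 of 10 fits that left out 1 library, with adjusted p up to 0.109. By contrast col7a1l (ENSDARG00000069692), named after the type VII collagen of anchoring fibrils, was higher in young mutants, at 89.1, 70.7, 49.2, 72.5 and 66.7 against 20.1, 14.6, 27.2, 11.4 and 39.2 in young wildtypes (1.69 ± 0.44, adjusted p = 0.00767), with no overlap.

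Of the 3 type I genes, which encode the main fibrils of fibrous tissue, col1a1b was called lower with age in both genotypes and col1a1a in mutants. For col1a1b the counts were 195, 323, 409, 368 and 118.9 in old mutants against 670.5, 528, 1113, 562 and 500.4 in young mutants (-1.32 ± 0.35, adjusted p = 0.0342). In wildtypes they were 409.9, 259.5, 315, 215 and 216 in old against 578, 295, 520.4, 874 and 1012 in young fish (-1.13 ± 0.35, adjusted p = 0.0196). For col1a1a they were 117, 359.8, 312, 124 and 20.5 in old mutants against 641, 437, 846, 439 and 471 in young mutants (-2.09 ± 0.57, adjusted p = 0.0364), but the wildtype ages differed by -0.61 (adjusted p = 0.422). The mutant ages did not overlap for either gene, and old mutant 5 was the lowest library for both. Leaving out 1 library at a time kept the mutant calls of col1a1b in 3 and of col1a1a in 4 of 10 fits, and the wildtype call of col1a1b in 7 of 10, with adjusted p up to 0.0878, 0.0869 and 0.0571 in that order. The third type I gene, col1a2, was at 403, 759, 759, 370.1 and 149 in old mutants against 1101, 789, 1363, 1058 and 658 in young mutants, which overlapped and missed the threshold (-1.20, adjusted p = 0.0519), and it differed by -0.57 in wildtypes (adjusted p = 0.221).

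Types V and XI join the core of fibrils and set their diameter. COL5A1 was at 171, 328, 233, 209 and 168 in old mutants against 264, 514, 618, 519 and 512 in old wildtypes, a fall of 1.12 ± 0.21 (adjusted p = 0.0018), with 1 old wildtype library inside the mutant range. For col11a2 the counts were 1.14, 2.95, 4.03, 4.27 and 3.46 in old against 12.04, 11.0, 11.95, 12.6 and 14.9 in young wildtypes (-1.76 ± 0.36, adjusted p = 0.00105), without overlap but from few reads. The young wildtypes also stood above both other groups compared with them for col5a2b, at 27.2 to 43.8 against 9.23 to 22.6 in old wildtypes (-1.12, adjusted p = 0.0139) and against 6.91 to 23.3 in young mutants (-1.27, adjusted p = 0.00819). The fibrillar genes called higher in old than in young wildtypes were the pair of identifiers named col24a1, a fibrillar type otherwise known from bone and cornea. The first (ENSDARG00000069904) was at 15.6, 8.44, 8.79, 5.02 and 4.87 in old mutants, 22.9, 24.6, 21.7, 30.7 and 20.8 in old wildtypes, 4.24, 3.37, 6.91, 2.90 and 1.99 in young mutants and 16.1, 1.22, 4.35, 2.53 and 6.53 in young wildtypes. It rose by 2.16 ± 0.45 with age in wildtypes (adjusted p = 0.00112) and fell by 1.49 ± 0.45 in old mutants against old wildtypes (adjusted p = 0.0298, a call kept in 3 of 10 fits that left out 1 library, with adjusted p up to 0.0787). The second (ENSDARG00000095843) rose by 1.52 ± 0.41 with age in wildtypes (adjusted p = 0.00743). Reads of identifiers that share a symbol may have been divided between near-identical copies. The type II identifier COL2A1 (ENSDARG00000069093) was higher in young mutants, at 167, 159, 176, 128 and 121 against 44.8, 25.6, 81.5, 131 and 137 in young wildtypes (1.07, adjusted p = 0.0245, kept in 7 of 10 such fits, with adjusted p up to 0.0701), and the groups overlapped.

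The FACIT genes gave most of the collagen genes that were higher in young mutants. The neighbours col16a1 and col9a2 (chromosome 19 of GRCz12tu), for fibril-associated chains of types XVI and IX, were raised together. Counts of col16a1 were 95.2, 101, 209, 341 and 118.9 in old mutants, 120.2, 96.3, 106, 54.6 and 73.8 in old wildtypes, 342, 289.7, 290.2, 383 and 384 in young mutants and 163, 109.6, 121, 177 and 220.3 in young wildtypes. The young mutants were above every young wildtype library (1.12 ± 0.30, adjusted p = 0.00869) and above all but 1 old mutant library (-1.13 ± 0.30 for old against young mutants, adjusted p = 0.0306, kept in 4 of 10 fits that left out 1 library, with adjusted p up to 0.084). For col9a2 they were 17.2, 12.7, 31.6, 90.4 and 42.9 in old mutants, 59.4, 95.4, 70.0, 164 and 160.2 in young mutants and 36.8, 34.1, 27.2, 36.7 and 33.6 in young wildtypes. The change was 1.56 ± 0.45 between the young genotypes (adjusted p = 0.0148) and -1.68 ± 0.45 between the ages of the mutants (adjusted p = 0.0337, kept in 5 of 10 fits, with adjusted p up to 0.0942). Of the other type IX chains, COL9A1 was lower in old wildtypes (-2.33 ± 0.64, adjusted p = 0.00922), where old wildtype 1 at 98.5 stood far above the other old wildtypes at 1.97 to 10.4 and young wildtypes were at 28.2 to 81.0. On the recovered reads that change was -1.27 in edgeR (adjusted p = 0.158) and -1.25 in DESeq2 (adjusted p = 0.131). The third chain, col9a3, was at 62.0 to 154 in old mutants, 111 to 189 in old wildtypes, 75.3 to 101 in young mutants and 90.3 to 121 in young wildtypes.

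Types XII and XIV link fibrils to the surrounding matrix. The gene col12a1b was at 63.7, 49.4, 44.9, 39.1 and 57.7 in young mutants against 22.8, 14.6, 16.3, 8.85 and 25.2 in young wildtypes, without overlap (1.55 ± 0.38, adjusted p = 0.00472). In old wildtypes it was at 20.6, 58.0, 49.1, 19.6 and 41.5, called higher than in young wildtypes (1.02 ± 0.38, adjusted p = 0.0419) in the full data and in 4 of 10 fits that left out 1 library (adjusted p up to 0.117). The other type XII gene, COL12A1, was called in neither comparison and did not share that direction. It was at 84.2 to 132 in young mutants and 73.4 to 146 in old wildtypes. Young wildtypes were at 238, 191, 96.7, 87.2 and 367, overlapping both. The type XIV gene col14a1a was at 1172, 897, 991, 905 and 998 in young mutants against 1309.5, 1530.1, 1529.8, 1619 and 1503 in young wildtypes. All 5 young mutants were below all 5 young wildtypes and the adjusted p was 0.000122, but the change of -0.60 ± 0.09 was under 2-fold. Its paralogue col14a1b was lower with age in wildtypes, at 137, 60.0, 53.2, 69.1 and 128 in old against 146, 180.2, 186, 183 and 192 in young fish (-1.08 ± 0.32, adjusted p = 0.0126).

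Whether age acted differently in mutants was tested by the difference of the age effects, mutant minus wildtype. It was called for 2 of the 46 genes, both lower, where 6.04% of all genes were called (2.58% higher and 3.46% lower), and for 4 without old wildtype 1 or old mutant 1 and 1 without any of young wildtype 2 and 4, old wildtype 2, 3 and 5, young mutant 5 and old mutant 5. The share of all genes called without those libraries is not given here. For col7a1l (ENSDARG00000069692) the difference was -2.28 ± 0.62 (adjusted p = 0.0187). Its counts were 14.8, 7.39, 39.6, 67.8 and 39.0 in old mutants and 29.8, 57.0, 32.2, 35.0 and 53.1 in old wildtypes, each group overlapping the young fish of its own genotype given above. For col12a1b the difference was -1.73 ± 0.53 (adjusted p = 0.0336), with 15.6, 58.0, 51.0, 27.6 and 19.5 in old mutants. The col7a1l call was kept in 20 of 20 fits that left out 1 library and that of col12a1b in 10 of 20, with adjusted p up to 0.0658. COL6A2 missed the threshold (-1.42, adjusted p = 0.0556), as did 44 of the 46 genes, which does not show that they aged alike in both genotypes.

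Old wildtype telencephalon was also set against young mutant telencephalon, the pair that asks how far the young mutants stood from aged wildtypes. Here 12 collagen genes were called lower and 3 higher in old wildtypes, where 7.84% of all genes were called (3.22% higher and 4.62% lower), with a median of -0.47, and the groups did not overlap for 12, against 20.8% of all genes. The genes lower in old wildtypes with the smallest adjusted p were col16a1 (-1.94 ± 0.30, adjusted p = 0.000203), col4a6 (-1.87 ± 0.33, adjusted p = 0.000638), col15a1b (-1.27 ± 0.25, adjusted p = 0.0011) and col9a2 (-2.15 ± 0.45, adjusted p = 0.00199). They were followed by col4a5, col5a3a, col18a1b, col6a1, COL8A2, col11a2, col1a1b and COL9A1, at -1.01 to -1.96 with adjusted p of 0.004 to 0.028. The genes higher in old wildtypes were both col24a1 identifiers (2.43 and 1.29, adjusted p = 0.000736 and 0.0229) and col28a1b (2.19, adjusted p = 0.0183). Among the genes with every young wildtype library above all other libraries, col4a4 and col8a1b differed by 0.36 (adjusted p = 0.674) and 0.06 (adjusted p = 0.903). The 95% intervals were -0.85 to 1.57 for col4a4 and -0.62 to 0.75 for col8a1b. Young wildtypes stood apart in the same way for col6a1, which was called lower in old wildtypes here, and for col5a2b, which was not called.

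Markers of other tissues were read in the same fits. Skeletal muscle markers were called lower for 5 of 12 in old against young wildtypes, where 5.66% of all genes were called lower. In old against young mutants they were called lower for 4 of 12, where 1.02% of all genes were. Their sum was 241 to 760.2 normalised counts in old mutants, 312 to 476 in old wildtypes, 519.9 to 1305 in young mutants and 464 to 874 in young wildtypes. Leptomeningeal fibroblast markers (the cells of the thin membrane around the brain) were called higher for 1 of 20 in old against young wildtypes, near the 5.21% of all genes called higher. They summed to 94957 to 367232 in old mutants, 146047 to 261551 in old wildtypes, 223499 to 283140 in young mutants and 114230 to 225206 in young wildtypes, and the ages overlapped in both genotypes. A few abundant markers carried these sums. The median marker was at 210 to 454 in old mutants, 266 to 433 in old wildtypes, 296 to 422 in young mutants and 338 to 498 in young wildtypes, and overlapped as well. Old mutant 5, with the lowest collagen sum, had a leptomeningeal sum of 204555, and old mutant 1, with the next lowest collagen sum, had 94957. Endothelial and mural markers summed to 6069 to 10200 and 3488 to 4704 in old mutants, 7351 to 10453 and 3804 to 4676 in old wildtypes, 6566 to 7840 and 3573 to 4158 in young mutants, and 6504 to 7324 and 3681 to 4675 in young wildtypes. The part of these cells in the collagen differences was not tested. Without the 7 libraries with high pineal genes, 7 collagen genes were called in old against young wildtypes (6 of them among the 15, col4a4, col4a5, col6a1, col8a1b, COL9A1 and 1 col24a1), 3 in young mutants against young wildtypes (2 among the 9, col16a1 and COL2A1), 3 in old against young mutants (all among the 9, COL6A2, col15a1b and col16a1), 3 in old mutants against old wildtypes (2 among the 3, COL6A2 and COL5A1) and 12 in old wildtypes against young mutants (11 among the 15). Those fits had fewer libraries, and the share of all genes called in them is not given here. Their counts are therefore not read as particular to collagen genes or to pineal tissue. The col4a4 difference between the young genotypes was then -2.66 with an adjusted p of 0.0653 and that of col8a1b -1.40 with an adjusted p of 0.0567.

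Genes that make, trim and bind collagen were read in the same fits. Over all genes tested, 10.9% were called in old against young wildtypes and 8.79% in young mutants against young wildtypes. The shares were 1.32% in old against young mutants and 2.81% in old mutants against old wildtypes. Of 33 genes for collagen folding and modification, 2 were called lower in old against young wildtypes, serpinh1a (48.3 ± 17.8 against 112 ± 18.9, -1.26, adjusted p = 0.00132), a gene for the collagen chaperone Hsp47, and colgalt2 (24.1 ± 3.32 against 64.7 ± 24.8, -1.29, adjusted p = 0.0042), a galactosyltransferase for collagen. In young mutants against young wildtypes 3 were called lower, the Hsp47 genes serpinh1b (4.099 ± 1.90 against 81.5 ± 27.7, -4.01, adjusted p = 0.000265) and serpinh1a (26.4 ± 10.8 against 112 ± 18.9, -2.11, adjusted p = 1.08e-05), and sec23a (274 ± 91.4 against 549 ± 164, a fall of 1.00, adjusted p = 0.00282), whose product coats the vesicles that leave the endoplasmic reticulum. In old against young mutants the call on this list was sparc (1122 ± 371 against 3151 ± 416, -1.55, adjusted p = 0.000969), a collagen-binding matrix protein, and in old mutants against old wildtypes it was serpinh1b (8.65 ± 7.49 against 72.5 ± 111, -2.28, adjusted p = 0.0298). The lysyl oxidase gene loxl2b, for a crosslinking enzyme, was lower in old wildtypes (144 ± 25.1 against 455 ± 93.1 in young wildtypes, -1.65, adjusted p = 0.000547), in young mutants (161 ± 30.7 against the same young wildtypes, -1.49, adjusted p = 0.00161) and in old mutants (86.1 ± 46.0 against 161 ± 30.7 in young mutants, -1.08, adjusted p = 0.045). It was 1 of 4 genes called among 15 for processing and crosslinking in old against young wildtypes, with loxl5b and loxl2a higher (1.34 and 1.78) and the procollagen protease gene tll1 lower (-1.48). In young mutants against young wildtypes loxl5b and loxl2a were again higher (1.25 and 1.93), and in old against young mutants tll1 and ADAMTS3 were lower (-1.67 and -1.36).

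Of 20 degradation genes 1 was called in old against young wildtypes, where 10.9% of all genes were called. This was the metalloprotease inhibitor gene timp4.1, at 1127 ± 313 in old against 297 ± 46.2 in young wildtypes (1.89, adjusted p = 4.62e-08). The metalloprotease gene mmp30 was lower in young mutants against young wildtypes (8.15 ± 5.86 against 52.3 ± 10.9, -2.88, adjusted p = 0.00294) and in old mutants against old wildtypes (13.3 ± 14.0 against 54.1 ± 15.3, -2.63, adjusted p = 0.0121). Among 29 basement membrane partners 3 were called higher and 2 lower in old against young wildtypes, including tinagl1 (1.58) higher and the laminin chain gene lamc1 (184 ± 34.6 against 462 ± 85.9, -1.32, adjusted p = 0.000399) and frem2a (-1.79) lower. Of the same 29 in old against young mutants 2 were lower, sparc and frem2a (-1.37). Among 21 collagen receptors, itga2.3, annotated as an integrin alpha chain, was at 449 ± 31.7 in old against 4.05 ± 2.302 in young wildtypes (6.61 ± 0.45, adjusted p = 4.08e-09) and at 121 ± 56.6 in young mutants against the same young wildtypes (4.61 ± 0.45, adjusted p = 6.74e-07). The collagen receptor kinase gene ddr2b was also higher in old wildtypes (1.63, adjusted p = 0.00241). Of 24 fibril-associated proteoglycans and matrix proteins 4 were called lower and 1 higher in old against young wildtypes, with tgfbi at 499 ± 438 against 1333 ± 316 (-1.69, adjusted p = 0.00418). Of 23 genes of TGF-beta signalling, a known inducer of collagen genes, 2 were called higher and 2 lower, the ligand gene tgfb2l being at 638 ± 49.2 in old against 217 ± 35.3 in young wildtypes (1.56, adjusted p = 1.88e-05).

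In the Mpeg1+ cells, sorted to follow microglia (the immune cells of the brain), 48 collagen genes were listed and 44 passed the filter. Microglial markers summed to 1208010 to 1260110 normalised counts in the libraries labelled mutant and 791623 to 1403150 in those labelled wildtype. The collagen genes with the highest means were COL5A1 (1388, 226 to 1947), col11a2 (468, 229 to 559) and col1a2 (386, 7.38 to 951) among fibrillar genes, col18a1a (181, 0 to 709.7), col4a4 (177, 2.37 to 334) and COL4A1 (92.0, 21.4 to 289) among basement membrane genes, col14a1a (197, 102 to 406), COL12A1 (59.0, 20.5 to 158) and col9a3 (50.3, 6.34 to 123) among FACIT genes, and col6a1 (166, 97.1 to 299.9), col8a1b (134, 0.79 to 310.1) and col17a1b (127, 36.6 to 213) among the others. Between 35 and 38 of the 48 had a read in the libraries labelled mutant, against 35 to 45 in those labelled wildtype. Of the 44 tested, 4 were called higher and 6 lower in the libraries labelled mutant, where 8.50% of all genes were called (4.93% higher and 3.57% lower). The median change was -0.86 with 27 of the 44 below 0, against a median of 0.05 over all genes, and the groups did not overlap for 14, against 28.6% of all genes. Rescaling the libraries to equal totals kept the collagen counts at 4 higher and 6 lower, although the calls over all genes went to 779 higher and 1129 lower against 1042 and 756 with the deposited scaling, and the median of all genes to -0.17.

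The 6 genes that were lower in the libraries labelled mutant included chains of types I, VI, XVI and XVIII, several of them close to 0 there. For col1a1a the counts were 0, 0, 0.824 and 0 in the libraries labelled mutant against 796, 111 and 711 in those labelled wildtype (adjusted p = 0.00209). This was 1 read in 4 libraries, a level 2286-fold lower with a 95% counting interval of 409.6 to 90350. For COL6A3 they were 0, 0, 1.65 and 0 against 212, 411 and 158 (adjusted p = 0.00181), from 2 reads, 657.7-fold lower with an interval of 181.5 to 5440. For col16a1 they were 0, 0.907, 0 and 0 against 164, 49.7 and 67.6 (adjusted p = 0.00446), from 1 read, 345-fold lower with an interval of 61.26 to 13690. These intervals cover counting error only. The basement membrane gene col18a1a was at 0.738, 2.72, 0 and 4.99 against 709.7, 168 and 379 (-7.16 ± 0.91, adjusted p = 0.00403). The calls of these 4 genes were kept in 7 of 7 fits that left out 1 library. Leaving out a library labelled mutant kept its alike partner, however, and no collagen gene was called when alike libraries were averaged (given below). The type I chain col1a2 was at 7.38, 13.6, 109 and 102 against 900.5, 616 and 951 (-4.56 ± 0.97, adjusted p = 0.0257, kept in 3 of 7 such fits, with adjusted p up to 0.0731). The remaining type I gene, col1a1b, was not called, at 21.4, 13.6, 1.65 and 1.66 against 808, 2.37 and 1328. COL6A2, a partner chain of COL6A3, was not called either, at 22.1, 32.6, 40.4 and 23.3 against 185, 0 and 146. No read of col23a1b was found in the libraries labelled mutant against 35.8, 4.74 and 62.7 in those labelled wildtype, at least 57.49-fold lower on a floor of 3 reads over the group (adjusted p = 0.0314, kept in 1 of 7 fits, with adjusted p up to 0.0956).

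The genes that were higher were low in the libraries labelled wildtype. Counts of col4a4 were 275, 269, 312 and 334 in the libraries labelled mutant against 35.8, 2.37 and 9.86 in those labelled wildtype (4.75 ± 0.80, adjusted p = 0.0113, kept in 5 of 7 fits that left out 1 library, with adjusted p up to 0.0513). Its neighbour col4a3 was at 25.8, 27.2, 0 and 1.66 against 5.96, 0 and 0, and did not pass (1.81, adjusted p = 0.476). The transmembrane collagen gene col17a1b, known from hemidesmosomes of epithelia, was at 190.5, 213, 168 and 182 against 41.7, 53.7 and 36.6 (2.09 ± 0.41, adjusted p = 0.0197). For col28a1b the counts were 28.8, 37.2, 27.2 and 44.1 against 0, 0.79 and 1.41 (adjusted p = 0.0111), 34.33-fold higher with an interval of 11.54 to 168.1 from 3 reads in the libraries labelled wildtype. The type V chain col5a3b was at 258, 201, 181 and 185 against 5.96, 56.1 and 0.704 (4.55, adjusted p = 0.0405). Calls of col17a1b, col28a1b and col5a3b were kept in 3, 3 and 1 of 7 fits, with adjusted p up to 0.0953, 0.0555 and 0.119. COL5A1, a chain of fibrillar type V, was at 1947, 1893, 1911 and 1737 against 918, 226 and 1081 and missed the threshold (1.62, adjusted p = 0.0855), and col6a1 overlapped (-0.12, adjusted p = 0.902).

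**Figure D3:**
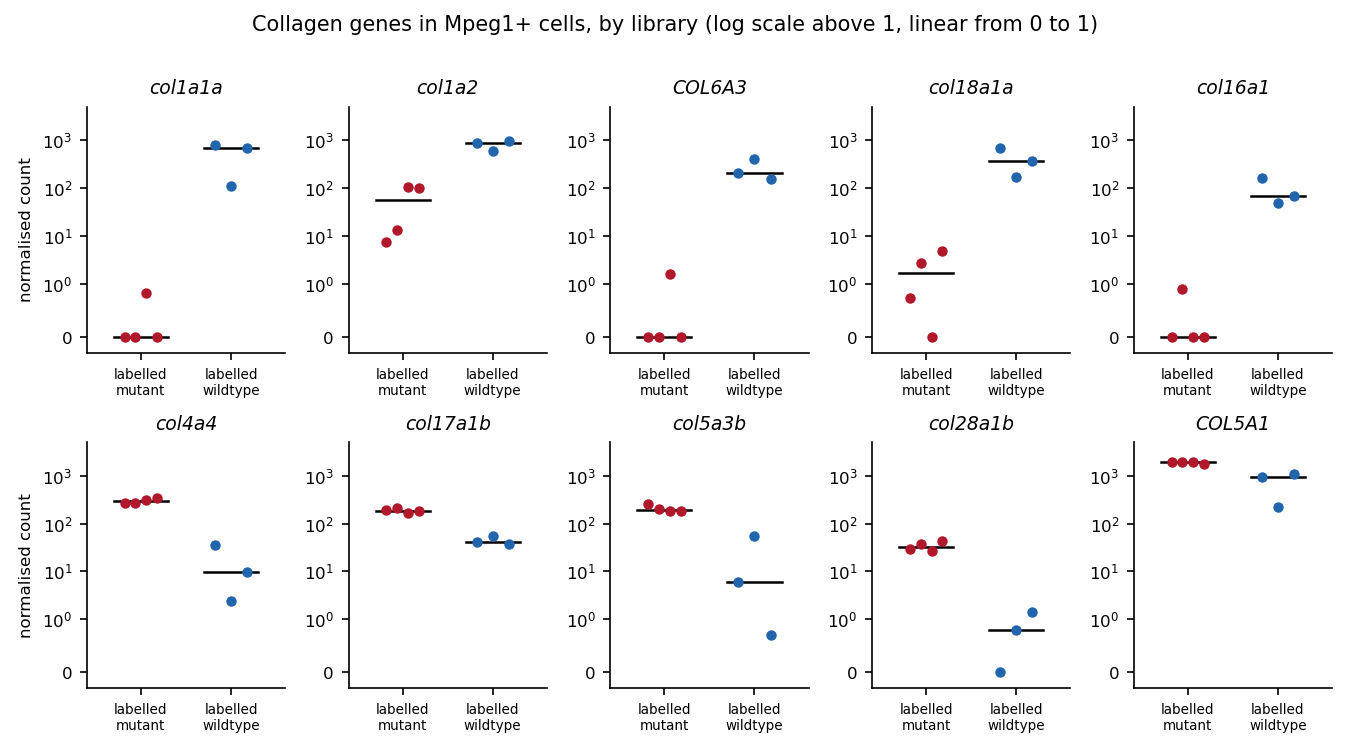
Normalised counts of the 10 collagen genes named in the panel titles in the 7 Mpeg1+ libraries (vertical axes logarithmic above 1 and linear from 0 to 1), with 1 point per library, libraries labelled mutant on the left and labelled wildtype on the right, and a line at the median. For col1a1a, COL6A3 and col16a1 the libraries labelled mutant lie at 0 to 1.65, while for col4a4 they lie at 269 to 334.

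Meningeal markers moved with these genes. Leptomeningeal fibroblast markers were called lower for 13 of 21 in the libraries labelled mutant, with a summed count of 4652 to 5668 against 337500 to 585181 in those labelled wildtype, led by epd (ependymin, 2229 ± 281 against 404994 ± 114588). Ependymoglia markers were called lower for 12 of 19 and summed to 85949 to 88287 against 144631 to 499922. Mural markers (8471 to 8994 against 9158 to 15604) and oligodendrocyte lineage markers (5382 to 6542 against 6631 to 8718) also summed lower. Other lists summed higher in the libraries labelled mutant. These were epidermal (126235 to 140750 against 56934 to 110627), skeletal muscle (1375 to 1426 against 359 to 808) and pineal markers (405 to 583 against 177 to 334). The part of these cells in the collagen differences was not tested. When the alike libraries labelled mutant were averaged, leaving 2 against 3 samples, limma called 0 of the 44 collagen genes, with 10 at an unadjusted p under 0.05 and a lowest adjusted p of 0.0955. On the separate libraries edgeR called 9 and DESeq2 14. Left out singly, each library labelled mutant brought the calls to 5, and leaving out labelled wildtype 2 brought them to 16, 4 higher and 12 lower. The share of all genes called in these fits is not given here, so their counts are not read as particular to collagen genes. Among genes that act on collagen, the lysyl oxidase gene loxl2b had no normalised count above 0 in the libraries labelled mutant against 248 ± 313 in those labelled wildtype, 1 of 13 processing genes called. The fibril-binding proteoglycan gene dcn (decorin) was at 3.16 ± 3.94 against 1705 ± 1626 (-8.25, adjusted p = 0.0121), the laminin chain gene lamc3 at 7.60 ± 7.55 against 1046 ± 830.5 (-6.86, adjusted p = 0.0207) and the metalloprotease gene mmp2 at 627 ± 57.2 against 3371 ± 1376 (-2.35, adjusted p = 0.00303). Sums over whole lists ran both ways. Degradation genes summed to 37240 to 39141 against 17320 to 30284, and collagen receptors to 119460 to 129535 against 23637 to 42529. Basement membrane partners were lower, at 7832 to 9454 against 9699 to 17888. The median gene of each of these lists overlapped, and the numbers called on them are not given here. The prolyl hydroxylase gene p4ha2, for an enzyme that stabilises the collagen helix, was higher (992 ± 117 against 319.7 ± 109, 1.69, adjusted p = 0.0123). It was the 1 call among 33 folding genes, where 8.50% of all genes were called.

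In the Olig2+ cells all 57 collagen genes were listed and 52 passed the filter. The marker OLIG2 itself was at 527 ± 507 in mutant against 1226 ± 487 in wildtype libraries (mean ± SD, n = 4 each; -1.55, adjusted p = 0.0496), and the oligodendrocyte lineage markers summed to 8227 to 12863 against 10560.1 to 13592. The highest means were those of COL2A1 (ENSDARG00000011407; 427, 171 to 839), col11a2 (378, 10.3 to 836) and COL5A1 (347, 140.4 to 736) among fibrillar genes, col4a4 (289.7, 25.1 to 762), col18a1a (146, 12.2 to 377) and col4a6 (79.8, 12.1 to 166) among basement membrane genes, col14a1a (1539, 664 to 2817), COL12A1 (189, 36.1 to 514) and col14a1b (115, 39.9 to 233) among FACIT genes, and col6a1 (302, 137 to 716), col17a1b (190.0, 25.1 to 462) and col7a1 (90.8, 32.0 to 142) among the others. Between 41 and 49 of the 57 had a read in the mutant libraries, against 55 to 57 in the deeper wildtype libraries, and 5 had none in any mutant library. Of the 52 tested, 4 were called higher and 10 lower in mutants, where 19.7% of all genes were called (6.99% higher and 12.7% lower). The median change was -1.07 with 39 of the 52 below 0, against a median of -0.01 over all genes, and the groups did not overlap for 12, against 24.2% of all genes. The normalised counts of mutant 2 totalled 38.5 M, against 20.2 to 23.2 M in each other Olig2+ library. With libraries rescaled to equal totals 4 were higher and 12 lower, while the calls over all genes went to 881 higher and 3768 lower, against 1557 and 2820 with the deposited scaling, and the median of all genes to -0.27.

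The 4 genes that were higher in mutant Olig2+ cells were separate from the wildtypes in every library. Counts of col4a4 were 218, 762, 463 and 556 in mutant against 126, 25.1, 96.7 and 71.1 in wildtype libraries (2.71 ± 0.54, adjusted p = 0.00595). Its neighbour col4a3 was at 83.7, 48.1, 36.7 and 65.4 against 31.8, 10.3, 55.2 and 14.5, a difference of 1.25 that did not pass (adjusted p = 0.184). The fibril-diameter gene col11a2 was at 640.4, 618, 836 and 508 against 123, 10.3, 172 and 112 (3.15 ± 0.69, adjusted p = 0.00917). Both type XVII genes were higher, col17a1b at 232, 317, 462 and 243 against 81.8, 25.1, 87.0 and 72.3 (2.31 ± 0.48, adjusted p = 0.00726) and col17a1a at 112, 76.2, 108 and 69.0 against 20.2, 15.8, 17.9 and 35.0 (2.02 ± 0.54, adjusted p = 0.0202). The calls of col4a4, col11a2 and col17a1b were kept in 8 of 8 fits that left out 1 library, and that of col17a1a in 5 of 8, with adjusted p up to 0.0631.

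Of the 10 genes lower in mutants, 4 were at or near 0 there. No read of col8a1b was found in the 4 mutant libraries against 34.5, 21.8, 6.45 and 24.1 normalised counts in wildtypes, at least 16.34-fold lower (adjusted p = 0.00691), on a floor of 3 reads over the group. Likewise col24a1 (ENSDARG00000095843) had none against 15.1, 10.3, 6.81 and 33.2, at least 11.57-fold lower (adjusted p = 0.0117). The other col24a1 identifier (ENSDARG00000069904) had 1 read against 27.0, 17.4, 8.60 and 5.43 normalised counts, 35.23-fold lower with a 95% counting interval of 6.216 to 1402 (adjusted p = 0.0201). The FACIT gene col19a1 (ENSDARG00000096073) had 1 read against 11.1, 3.81, 10.7 and 22.9, 27.29-fold lower with an interval of 4.79 to 1088 (adjusted p = 0.0298). A single read was worth 4.01 normalised counts in mutant 2 and 3.63 in mutant 4, so low genes were measured coarsely in mutants.

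The others were measured in most libraries. Counts of col15a1b were 18.2, 0, 2.45 and 0 in mutant against 132, 69.7, 113 and 13.3 in wildtype libraries (-4.46 ± 1.07, adjusted p = 0.013). Those of col18a1a were 27.2, 120.3, 12.2 and 72.6 against 158, 377, 287 and 109.7 (-2.29 ± 0.68, adjusted p = 0.032), and of COL12A1 91.8, 36.1, 66.1 and 79.9 against 286, 514, 362 and 79.0 (-1.96 ± 0.57, adjusted p = 0.0302). Wildtype 4 lay within the mutant range for all 3 genes. The FACIT gene col14a1a was at 664, 1633, 807 and 843 against 2817, 2333, 2069 and 1151 (-1.10 ± 0.36, adjusted p = 0.0468). For col1a1a the counts were 3.03, 8.02, 1.22 and 3.63 against 9.53, 108, 20.1 and 33.8 (-2.78 ± 0.88, adjusted p = 0.0402), and for its partner col1a2 2.02, 329, 60.0 and 65.4 against 124, 509, 124 and 239.9, which did not pass (-2.22, adjusted p = 0.155). The remaining type I gene, col1a1b, was not called, at 73.6, 209, 44.1 and 10.9 against 162, 208, 176 and 121. The anchoring-fibril gene col7a1l (ENSDARG00000069692) was at 10.1, 4.01, 19.6 and 7.26 against 52.0, 38.1, 69.9 and 25.3 (-2.17 ± 0.70, adjusted p = 0.0436). Of these, col15a1b kept its call in 7 of 8 fits that left out 1 library, COL12A1, col18a1a and col7a1l in 3, and col14a1a and col1a1a in 2 of 8, with adjusted p up to 0.154. The count of calls, 14, was 5, 6 and 6 without wildtype 1, 2 and 3, and 9 without mutant 4, and the share of all genes called in those fits is not given here.

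**Figure D4:**
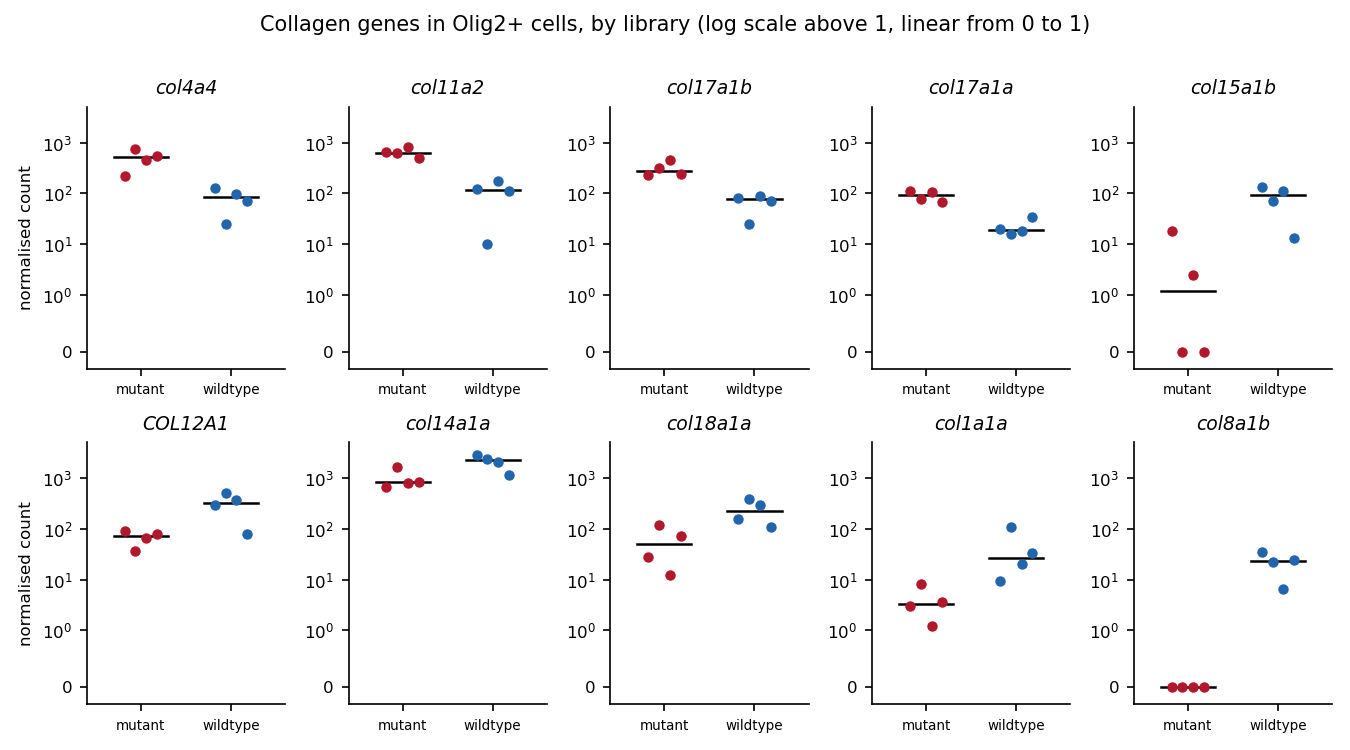
Normalised counts of the 10 collagen genes named in the panel titles in the 8 Olig2+ libraries (vertical axes logarithmic above 1 and linear from 0 to 1), with 1 point per library, mutant on the left and wildtype on the right, and a line at the median. For col4a4, col11a2, col17a1b and col17a1a every mutant library lies above every wildtype library, and col8a1b lies at 0 in all 4 mutant libraries.

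Markers of other cells differed between the Olig2+ groups as well. Neuron markers summed to 71108 to 123957 in mutant against 142771 to 183395 in wildtype libraries, without overlap. Skeletal muscle markers summed to 992 to 1945 in mutant against 300 to 879 in wildtype libraries, also without overlap. The sums of the lists that follow overlapped. Microglial markers were called higher for 13 of 34 in mutants (summed count 58845 to 276791 against 17832 to 118017 in wildtypes), leptomeningeal markers were called lower for 4 of 19 (9278 to 61499 against 9981 to 94940) and endothelial markers lower for 4 of 19 (2231 to 2699 against 2652 to 3006). Their part in the collagen differences, and that of the lower depth of the mutant libraries, was not tested. Over all genes tested in Olig2+ cells, 19.7% were called (6.99% higher and 12.7% lower in mutants), the share to set beside each list count here. Of 33 folding genes 4 were called higher and 3 lower. The Hsp47 gene serpinh1b was at 427 ± 81.5 against 68.8 ± 36.0 (2.76, adjusted p = 0.00259). The gene creb3l1, for a transcription factor of the secretory pathway, was at 88.2 ± 49.999 against 332 ± 65.5 (-2.07, adjusted p = 0.00985). Of 15 processing and crosslinking genes 3 were lower, loxl2b at 37.4 ± 38.4 against 923 ± 164 (-5.60, adjusted p = 0.00177), the procollagen protease gene adamts2b at 59.2 ± 52.7 against 211 ± 27.7 (-2.17, adjusted p = 0.0173) and LOXL1 at 181 ± 75.0 against 748 ± 467 (-1.80, adjusted p = 0.039). Of 31 basement membrane partners 7 were lower and 1 higher, with the laminin chain genes LAMA1 at 13.4 ± 4.98 against 207 ± 113 (-3.61, adjusted p = 0.00409) and lama2 at 1.21 ± 1.71 against 26.0 ± 18.0 (-3.66, adjusted p = 0.0155), and the nidogen gene nid1a at 2.98 ± 3.11 against 30.5 ± 12.02 (-3.31, adjusted p = 0.0178). The collagen-degrading protease gene CTSK was higher (452 ± 70.3 against 189 ± 77.3, 1.34, adjusted p = 0.0278).

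The sorted populations share no libraries, and 44 collagen genes were tested in both. In each, col4a4 and col17a1b were called higher and col18a1a and col1a1a lower in the libraries labelled mutant, which is 4 of the 10 genes called in Mpeg1+ cells and 4 of the 14 called in Olig2+ cells. Over all 20019 genes tested in both, 269 were called in the same direction, 15.9% of the calls in Mpeg1+ and 6.52% of those in Olig2+ cells, while 7.05% of the Mpeg1+ calls and 2.89% of the Olig2+ calls ran in opposite directions. The direction of the 4 collagen genes rests on the Mpeg1+ labels, against which grnb went, while grna overlapped between them. With those labels turned, each of the 4 would run in opposite directions in the sorted populations. None of the Mpeg1+ calls was left when alike libraries were averaged (limma, 0 of 44, with 10 at an unadjusted p under 0.05). Set beside these, col4a4 in whole telencephalon was lower in young mutants than in young wildtypes, as given above, and the difference between the whole tissue and the sorted cells was not tested because the tables were scaled separately.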

How the data were processed

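RNA was copied with the SMART-Seq v4 kit, which does not mark strand,. According to the study's methods, reads were mapped with STAR to GRCz10 and counted per gene. The deposited tables (1 each for whole telencephalon, Mpeg1+ and Olig2+ cells) hold signal values that the authors made by dividing those counts by a size factor for each library, estimated in DESeq2. They are exact multiples of what 1 read is worth in a library (100% whole to a relative tolerance of 1e-06), so reads were recovered from them for the count tests. Symbols came from the study's supplementary lists of differentially expressed genes where these named an identifier, and otherwise from the reference table of gene names. A symbol was found for 22186, 21369 and 23122 identifiers in the whole-telencephalon, Mpeg1+ and Olig2+ tables, and none for 1844, 1789 and 2126. An identifier was taken as a collagen gene if its symbol from either source matched. Gene neighbours came from RefSeq GRCz12tu, another build, so no coordinates are given.

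Each table was tested by itself with limma 3.58.1 (trend and robust options) in R 4.3.3 on log2(normalised count + 1), with the 4 telencephalon groups in 1 model, for genes with a table mean of at least 5 (19877, 21155 and 22273 genes in the whole-telencephalon, Mpeg1+ and Olig2+ tables). P-values were two-sided and Benjamini-Hochberg adjusted over all genes tested, and calls needed a 2-fold change and an adjusted p no larger than 0.05, the thresholds of the study. The design had assumed this unit. The alternatives were other pseudocounts, filters and scaling, no fold threshold, edgeR 4.0.16 and DESeq2 1.42.0 on recovered reads, a replicate block, each library left out, the libraries with high pineal genes left out (median over 17 genes above 100), and alike Mpeg1+ libraries averaged. Same-numbered libraries were not treated as pairs in the main fits. Fold intervals are exact 95% intervals on pooled reads and cover counting error only, and a group at 0 was set to a floor of 3 reads. The fits were tested on simulated data. The study describes its replicates as biologically distinct, with 5 telencephali per group for whole telencephalon. Separate collection days are not stated, and the Mpeg1+ libraries labelled mutant were alike in pairs, so p-values measure the spread between these libraries.

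The genes named are every called collagen gene, the 3 with the highest mean in each class and table, some partner chains of a called gene, up to 4 called members of each pathway list and neighbouring collagen genes. Not every partner chain is given for every comparison. The members, pathway lists and marker lists were chosen with earlier results of these data known. Counting intervals came from scipy 1.17.1 and figures from matplotlib 3.10.9, under Python 3.11.15.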

Additional observations from a re-analysis of the deposited data

Results flagged for a closer look

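In 118 groups of 4 or 5 libraries of the collagen genes named, 1 library stood far from the others in 13. Chance alone gives about 1 in 20 for measured levels, but that rate does not hold for 5 of the 13, in which every other library was at 0 and any read stands apart. In whole telencephalon old wildtype 1 was high for COL9A1 (98.5 normalised counts, others up to 10.4), col4a5 (139, others up to 85.4) and col9a2 (59.5, others up to 23.4), and it was also the old wildtype library with high pineal genes. Young mutant 3 was high for col1a1b (1113, others up to 670.5) and col28a1b (4.32, others up to 1.06), young mutant 1 low for COL9A1 (19.1, others from 46.0) and young wildtype 1 low for col14a1b (146, others from 180.2). In Mpeg1+ cells labelled mutant the library apart held the only reads of its group, for col16a1 (0.907 in replicate 2), col1a1a (0.824 in replicate 3) and COL6A3 (1.65 in replicate 3). The same was so in mutant Olig2+ cells for col19a1 (ENSDARG00000096073; 1.22 in replicate 3) and col24a1 (ENSDARG00000069904; 1.01 in replicate 1), while col15a1b was high in replicate 1 (18.2, others up to 2.45).

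The difference of the age effects, mutants minus wildtypes, passed the test for 2 of 46 collagen genes, where 6.04% of all genes passed. These were col7a1l (ENSDARG00000069692; -2.28 on the log2 scale, limma adjusted p = 0.0187) and col12a1b (-1.73, adjusted p = 0.0336). The col12a1b call was lost in 10 of 20 fits that left out 1 library and without the libraries with high pineal genes (adjusted p = 0.0813).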

How the results depend on the processing

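Low genes were measured coarsely in the libraries with few reads, as in the mutant Olig2+ cells, and the part of depth in the differences was not tested. The Mpeg1+ result rests on libraries labelled mutant that were alike in pairs. Over 1449 alternative values of single called genes, 1210 kept their call, 239 lost it and none changed direction. With a filter at a mean of 50 fewer collagen genes are tested (25, 20 and 25 in the whole-telencephalon, Mpeg1+ and Olig2+ tables), and the calls were 6 in old against young wildtypes, 4 in young mutants against young wildtypes, 1 in old mutants against old wildtypes, 9 in old wildtypes against young mutants, 7 in Olig2+ cells and, for the difference of the age effects in limma, 0 (5 at an unadjusted p under 0.05, against 3 calls by edgeR and 4 by DESeq2 with the usual filter). On recovered reads edgeR called 4 in old against young mutants. Without the libraries with high pineal genes the calls were 7 in old against young wildtypes, 3 in young mutants against young wildtypes, 3 in old against young mutants and 4 for the difference of the age effects. The share of all genes called in those smaller fits is not given here, so these counts are not read as particular to collagen genes. Averaging alike Mpeg1+ libraries left 0 of 44 (limma, 10 at an unadjusted p under 0.05). Apart from the smaller filters and samples, the cause of these moves was not tested. Leaving out 1 library at a time gave 12 to 16 calls in old against young wildtypes, 8 to 10 in young mutants against young wildtypes, 2 to 11 in old against young mutants, 2 to 5 in old mutants against old wildtypes, 11 to 14 in old wildtypes against young mutants, 1 to 4 for the difference of the age effects, 5 to 16 in Mpeg1+ cells and 5 to 18 in Olig2+ cells. For these fits, and for those with a filter at 50, edgeR or DESeq2, the share of all genes called is not given here. Their counts are therefore not read as particular to collagen genes either.

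With the replicate number as a block (replicate block) the Mpeg1+ calls were 4, and no other count moved by more than 1.5 times. Deviations of same-numbered libraries correlated at -0.34 to 0.48 in whole telencephalon, -0.01 to 0.00 in Mpeg1+ and 0.00 to 0.14 in Olig2+ cells. No expectation for unpaired libraries was computed, so these values cannot decide whether the numbers pair the libraries.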
